A study of Mus musculus with 6 samples.

Results

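The 10 genes described here are the Fringe glycosyltransferases Lfng, Mfng and Rfng, the Hes and Hey family genes Hes1, Hes5, Hes6, Hey1, Hey2 and Heyl, and the Notch feedback gene Nrarp. They were chosen by symbol, and all 10 were found among the 26264 genes of the count table. RNA came from neural stem cell cultures of adult mouse spinal cord (C57BL6J background), grown with EGF and FGF2. A GFP reporter driven by Pdgfra, a growth factor receptor gene of oligodendrocyte precursors, was used to sort GFP-positive from GFP-negative cells, with 3 bulk libraries of each. The genotype is given as PDGFRaGFP/+ for the GFP-positive and PDGFRaGFP/- for the GFP-negative samples, although the design text describes sorted fractions of one reporter line. Both fractions came from the same medium, and no treatment other than sorting is listed. The numbers of animals, their age and the passage of the cultures are not stated. The study set out to learn how oligodendrocyte lineage cells arise in them.

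Notch is a receptor that, once bound by a ligand on a neighbouring cell, is cleaved so that its intracellular part enters the nucleus and joins the DNA-binding protein Rbpj. Hes1, Hes5, Hey1, Hey2, Heyl and Nrarp are genes that this complex can switch on. Hes and Hey proteins are basic helix-loop-helix factors. Those other than Hes6, which is described below, are repressors that can keep neural progenitors from differentiating. In the oligodendrocyte lineage Hes5 is known to restrain myelin gene expression. Fringes act earlier, in the Golgi, where they extend the O-fucose sugars on the receptor and so change which ligands it answers to.

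The sort itself was clear in the counts. Libraries held 31067850 to 45207335 counts, and Pdgfra stood at 237, 205 and 245 CPM in GFP-positive libraries, against 8.04, 19.3 and 13.9 CPM in GFP-negative libraries (CPM after TMM scaling). The GFP-negative library of replicate 2 also held more of the precursor genes C1ql1 and Sox10 (14.3 and 12.5 CPM) than the other GFP-negative libraries, where they reached 5.18 and 3.53 CPM. Gpr17, Nkx2-2, Olig1, Olig2 and Lhfpl3 were also highest in replicate 2 among the GFP-negative libraries. Not every precursor marker followed. Cspg4 was lowest in replicate 2 (153 CPM, against 208 and 188 CPM in the GFP-negative libraries of replicates 1 and 3). So was Ptprz1, the most abundant of the 10 precursor markers (2928 CPM, against 3277 and 3474 CPM). The sum of the 10, to which Ptprz1 adds the most, was lowest there too. Replicate 2 was also the highest GFP-positive library for C1ql1 and Sox10, at 162 and 93.6 CPM, but the lowest for Pdgfra. Nes, Fabp7, Vim and Sox2, which mark neural stem cells, were detected in both fractions, at 294 and 926 CPM for Nes in GFP-positive and GFP-negative cells. Because the samples are bulk, fewer cells of a type and less RNA per cell cannot be told apart.

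All 10 genes passed the low-count filter and differed between the fractions (edgeR quasi-likelihood test, adjusted p below 0.05 over the 14554 genes tested). Of them, 7 were lower in GFP-positive cells (Lfng, Hes1, Heyl, Nrarp, Hey2, Hes5 and Hey1) and 3 were higher (Mfng, Hes6 and Rfng). The background is high in this comparison, since 55.4% of all tested genes were called, 29.2% of the tested genes as lower and 26.1% as higher. The ranges of the 2 groups did not overlap for any of the 10 genes, as for 64.2% of all tested genes. The sizes of the changes are given as description only, since the 10 genes were chosen with earlier results of these data known. A call with a decrease of more than 2.5 on the log2 scale was made for 6 of the 10 genes and for 4.01% of all tested genes, and one with an increase of more than 2.5 for Mfng and for 0.921% of all genes. These counts depend on the limit chosen, and nothing shows that it was set before the values were seen. Mfng lay near it and fell below it when some libraries were left out, to 2.41 without GFP-positive replicate 3. The 6 decreases stayed beyond it in all the alternative fits described below, with Hey2 nearest at -2.64. The median log2 fold change was -2.86 over the 10 genes and -0.0058 over all tested genes.

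**Figure D1:**
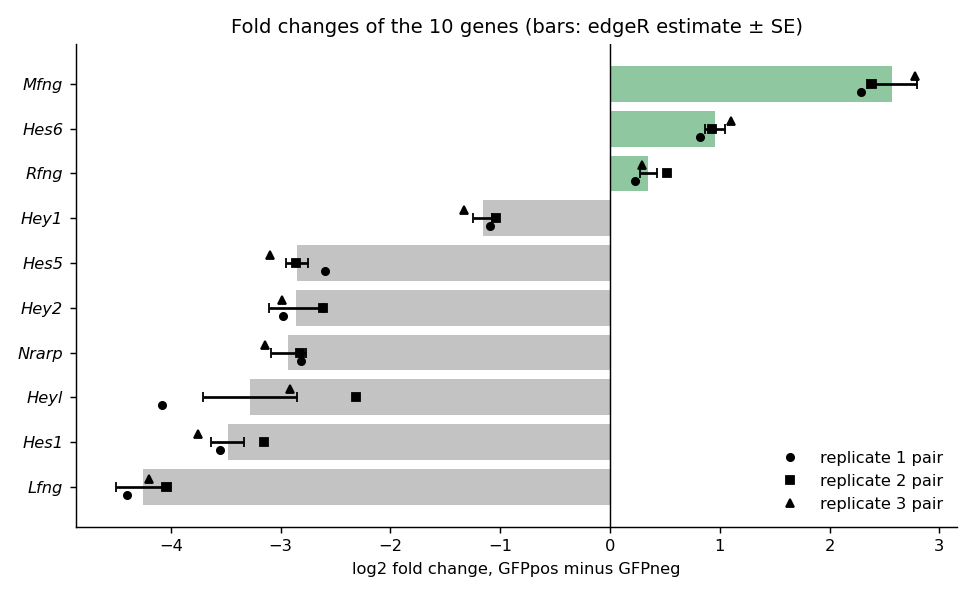
Log2 fold change of each of the 10 genes, GFP-positive minus GFP-negative. Bars give the edgeR estimate with its standard error, and points give the 3 same-numbered pairs of libraries. Lfng, Hes1, Heyl, Nrarp, Hey2, Hes5 and Hey1 lie left of 0 in every pair, and Mfng, Hes6 and Rfng lie right of 0 in every pair.

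Promoter sequences were available for 6 of the 10 genes, with 2 start sites for Hes6, but not for Hes1, Hey1, Heyl or Mfng. Nrarp, a lower gene whose window also holds E-boxes, is not shown. Of the 4 shown, those of Hes5, Hey2 and Lfng, which were lower, hold the letters bound by Rbpj. That of Hes6, which was higher, holds an E-box. Each of the 4 runs 5′ to 3′ on the gene's strand, from 250 bases before to 50 bases after the annotated start (RefSeq, GRCm38.p6). Capitals mark the Rbpj core GTGGGAA, or its reverse complement, in Hes5, Hey2 and Lfng, and the E-box CAGCTG, a sequence bound by proneural factors, in Hes6. Lfng also holds CAGCTG, in 2 places, which is left in small letters there. The letters to mark were picked gene by gene, so the capitals do not show which motif goes with which direction. The Hes5 window is chr4:154960673-154960972 (plus strand), the Hey2 window chr10:30842734-30843033 (minus strand), the Lfng window chr5:140607091-140607390 (plus strand) and the Hes6 window chr1:91413173-91413472 (minus strand).
Hes5: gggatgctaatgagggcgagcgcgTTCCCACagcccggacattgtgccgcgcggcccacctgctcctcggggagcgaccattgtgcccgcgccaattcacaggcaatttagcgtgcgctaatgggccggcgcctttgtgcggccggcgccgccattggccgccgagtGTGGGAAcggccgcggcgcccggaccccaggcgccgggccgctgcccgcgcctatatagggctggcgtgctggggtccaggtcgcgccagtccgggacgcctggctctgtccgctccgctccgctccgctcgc
Hey2: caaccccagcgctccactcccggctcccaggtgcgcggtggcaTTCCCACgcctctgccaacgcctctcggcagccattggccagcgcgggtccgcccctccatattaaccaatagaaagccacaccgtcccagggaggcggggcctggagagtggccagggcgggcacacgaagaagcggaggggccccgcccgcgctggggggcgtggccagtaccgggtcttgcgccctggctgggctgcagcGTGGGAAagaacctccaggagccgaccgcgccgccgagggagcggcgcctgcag
Lfng: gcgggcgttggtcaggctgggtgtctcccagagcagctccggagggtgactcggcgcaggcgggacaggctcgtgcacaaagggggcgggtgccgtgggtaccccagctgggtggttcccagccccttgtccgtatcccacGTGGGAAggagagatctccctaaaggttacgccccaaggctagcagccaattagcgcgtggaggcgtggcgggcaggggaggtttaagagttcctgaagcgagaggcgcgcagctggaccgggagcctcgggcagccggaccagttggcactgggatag
Hes6: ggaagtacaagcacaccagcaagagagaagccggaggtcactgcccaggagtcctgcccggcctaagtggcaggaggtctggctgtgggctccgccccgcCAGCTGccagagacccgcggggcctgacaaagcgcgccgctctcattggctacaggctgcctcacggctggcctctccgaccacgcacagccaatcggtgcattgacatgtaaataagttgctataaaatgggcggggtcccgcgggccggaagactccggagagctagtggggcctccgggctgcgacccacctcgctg

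Both strands were searched for 4 motifs, which were chosen after the sequences had been seen. Hes5 held GTGGGAA at -226 on the opposite strand and at -83 on its own strand, counting the annotated start as 0. Hey2 held it at -207 on the opposite strand and at -4 on its own. Lfng held it at -109, where it overlapped the palindromic E-box CACGTG at -112. Of the 32851 promoters of 300 bases in the same table, 6.38% held at least 1 match to GTGGGAA and 0.256% held 2 or more. Neither Nrarp, nor Rfng, nor either start of Hes6 held these letters in this window. Nrarp held CACGTG at -108, which 7.15% of promoters held. CAGCTG was found in both Hes6 windows, at -150 in the one shown and at -171 in the other, and also in Lfng and Nrarp, against 16.3% of all promoters. The N-box CACNAG, a described Hes1 site, was in 42.5% of promoters and in those of Lfng, Nrarp, Rfng and Hes6. These matches are letters in a window, and no binding was measured.

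**Figure D2:**
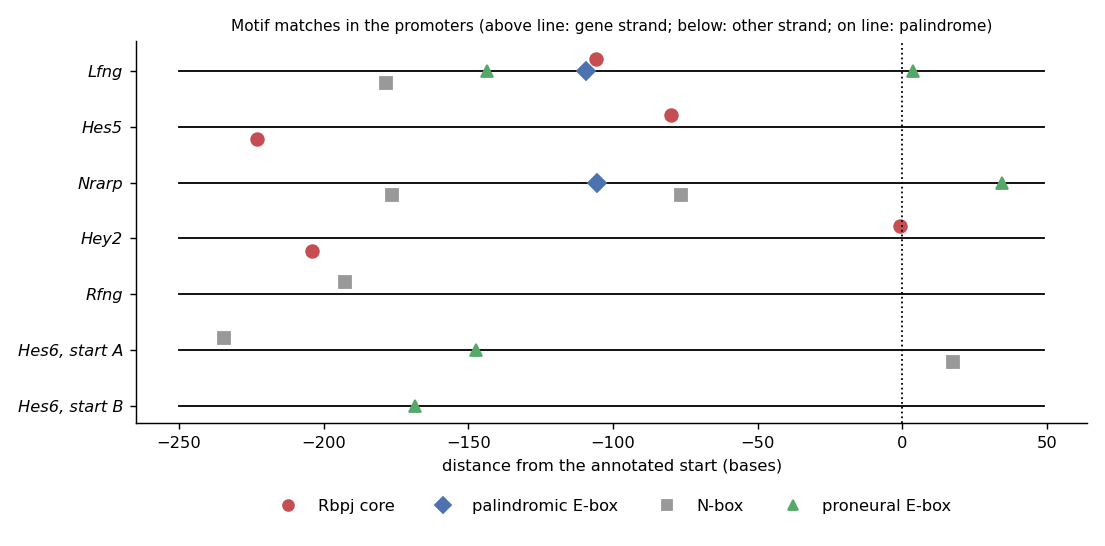
Motif matches in the 7 promoter windows of Lfng, Hes5, Nrarp, Hey2, Rfng and Hes6, by distance from the annotated start in bases. Hes6 start A is the window whose sequence is printed; Hes5 and Hey2 each show 2 Rbpj core matches, Lfng shows 1, and Nrarp, Rfng and Hes6 show none.

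Hes1, a repressor known for oscillating in neural progenitors and for holding back proneural genes, stood at 5.53, 5.65 and 4.11 CPM in GFP-positive libraries, against 65.1, 50.5 and 55.8 CPM in GFP-negative libraries. Every GFP-positive library lay far below every GFP-negative one. The means were 5.10 ± 0.859 CPM and 57.1 ± 7.44 CPM in GFP-positive and GFP-negative cells (SD, n = 3 each), a log2 fold change of -3.48 (edgeR adjusted p = 2.34e-06, SE 0.15), or 11.2-fold lower. Of all tested genes, 228 had a lower fold change.

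Hes5, the Notch target most closely tied to the maintenance of neural stem and precursor cells, was measured at 18.4, 17.4 and 14.9 CPM in GFP-positive cells, against 111, 127 and 128 CPM in GFP-negative cells. The groups did not overlap, and the replicates of each group stood close together. Its log2 fold change was -2.85 (edgeR adjusted p = 1.64e-06, SE 0.10), a 7.22-fold lower level. The window before its start is the first of the sequences above. An antisense transcript overlaps Hes5 in GENCODE M21, and another overlaps Nrarp; the strand setting used for counting is not given, so reads of either pair may be mixed.

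The fold change of Hes1 was larger than that of Hes5 in each same-numbered pair of libraries. The log2 ratio of Hes5 to Hes1 was 1.72, 1.61 and 1.85 in GFP-positive libraries, against 0.77, 1.33 and 1.20 in GFP-negative libraries. The ratio was thus higher in all 3 GFP-positive libraries, by 0.63 on average. The exact two-sided permutation test gave p = 0.10, the smallest value that 3 libraries against 3 allow.

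The Hey genes, close relatives of Hes that act in heart and vessels as well as in neural progenitors, were lower by unequal amounts. Hey1 had 16.4, 18.1 and 16.2 CPM in GFP-positive libraries and 35.0, 37.3 and 40.9 CPM in GFP-negative libraries. It showed the smallest decrease of the 7 lower genes, with a log2 fold change of -1.16 (edgeR adjusted p = 2.27e-05, SE 0.09). Hey2 had 1.28, 2.45 and 1.85 CPM in GFP-positive libraries and 10.5, 15.3 and 15.1 CPM in GFP-negative libraries, a log2 fold change of -2.86 (edgeR adjusted p = 4.95e-05, SE 0.25). Neither gene's groups overlapped.

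Heyl was the scarcest of the 10 genes in GFP-positive cells. It had 3, 14 and 6 counts in the GFP-positive libraries, against 75, 55 and 49 counts in the GFP-negative libraries. The groups were apart, but counting error is large at this level. The log2 fold change of -3.28 (edgeR adjusted p = 3.68e-04, SE 0.43) rests on 23 counts in all GFP-positive libraries, and the values of the 3 pairs were spread, at -4.08, -2.31 and -2.91. Without GFP-positive replicate 2 the fold change was -3.88, and without both libraries of replicate 2 it was -3.93.

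Hey1, Hey2 and Heyl are also transcribed in endothelial and mural cells, so markers of these cells were read beside them. Of 7 endothelial markers, 3 passed the filter, 1 of them (Flt1) was lower and 0 were higher; Cldn5 had no count in any library, and Cdh5 and Tie1 were at or below 0.0648 CPM throughout. The summed endothelial level was 1.39 to 2.29 CPM in GFP-positive libraries and 2.55 to 9.82 CPM in GFP-negative libraries. Of 7 mural markers, Pdgfrb, Rgs5, Kcnj8 and Acta2 stood at 0.414 CPM or less in every library, Myh11 was lower, and Cspg4, also a precursor gene, was higher and made up most of the sum, of 386 to 442 CPM in the GFP-positive fraction, against 158 to 217 CPM in GFP-negative libraries.

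Nrarp encodes a small ankyrin repeat protein that Notch induces and that dampens Notch in return. Its levels were 6.46, 8.74 and 6.69 CPM in GFP-positive libraries, against 45.6, 62.2 and 59.5 CPM in GFP-negative libraries. Again the groups lay far apart, by a log2 fold change of -2.93 (edgeR adjusted p = 5.31e-06, SE 0.16), or 7.62-fold. The pairs differed little, at -2.81, -2.82 and -3.14. Nrarp, Hes5 and Hey2 thus had fold changes within their standard errors of each other.

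Hes6 went the other way. It is the family member that does not bind the usual Hes sites and is described in mouse as an inhibitor of Hes1 that promotes neuronal differentiation. Hes6 stood at 74.9, 90.1 and 90.5 CPM in GFP-positive libraries and at 42.3, 47.2 and 42.2 CPM in GFP-negative libraries. All GFP-positive libraries were above all GFP-negative ones. The log2 fold change was 0.96 (edgeR adjusted p = 6.44e-05, SE 0.09), or 1.94-fold higher.

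The balance of Hes6 to Hes1 therefore differed widely between the fractions. The log2 ratio was 3.75, 3.98 and 4.44 in GFP-positive libraries, against -0.62, -0.096 and -0.40 in GFP-negative libraries, a difference of 4.43. The exact two-sided permutation p was 0.10, the smallest possible here. Per kb of exon, Hes6 averaged 47.1 CPM per kb and Hes1 ranged over 2.02 to 2.77 CPM per kb in GFP-positive cells, while in GFP-negative cells Hes6 and Hes1 averaged 24.3 and 28.1 CPM per kb.

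**Figure D3:**
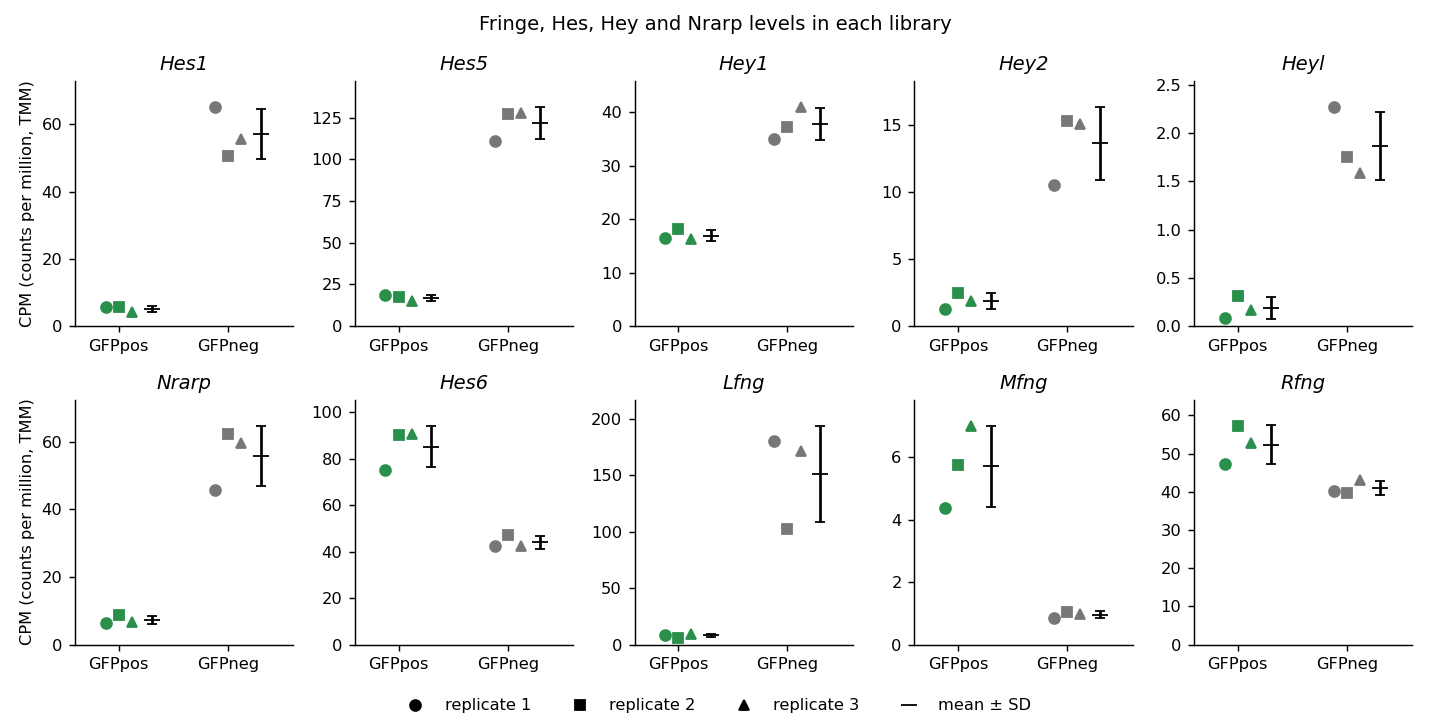
CPM of each gene in each library, with the mean and SD of each group (n = 3). Symbols mark the replicate number. GFP-positive and GFP-negative libraries do not overlap for any of the 10 genes, and each vertical axis starts at 0.

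Among the fringes, Lfng changed most. Lunatic fringe, the form known from the segmentation clock and from neural progenitors, stood at 8.47, 6.16 and 9.30 CPM in GFP-positive libraries, against 180, 102 and 171 CPM in GFP-negative libraries. The groups did not overlap, with a log2 fold change of -4.25 (edgeR adjusted p = 7.75e-06, SE 0.25), or 19.0-fold lower. Only 65 of the tested genes had a lower fold change. The lowest GFP-negative value, 102 CPM, came from replicate 2. Among the GFP-negative libraries it had the most Pdgfra, C1ql1 and Sox10, but the least Cspg4 and Ptprz1. It also had the most of the astrocyte marker Aldh1l1 (121 CPM, against 15.2 and 26.9 CPM in replicates 1 and 3). No other astrocyte marker listed was highest there. Without GFP-negative replicate 2 the Lfng fold change was -4.46, and the part of this library in the spread was not tested.

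Mfng, manic fringe, was low in both fractions and higher in GFP-positive cells. Its levels were 4.39, 5.76 and 6.99 CPM in GFP-positive libraries and 0.849, 1.05 and 0.972 CPM in GFP-negative libraries. The ranges were apart by more than the spread within either group. The log2 fold change was 2.57 (edgeR adjusted p = 5.49e-05, SE 0.23), and 116 tested genes had a higher one.

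Rfng, radical fringe, had the smallest change of the 10 genes. It stood at 47.2, 57.2 and 52.7 CPM in GFP-positive libraries, against 40.3, 39.7 and 43.0 CPM in GFP-negative libraries. The groups did not overlap, yet the distance between them was small, at 1.28-fold (log2 fold change 0.35, SE 0.08, edgeR adjusted p = 0.00658). The call held in all 16 alternatives, with an adjusted p of up to 0.0483 without replicate 3.

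The fringe with the most RNA thus differed between the fractions. Divided by exon length, Lfng made up 14.2%, 8.96% and 13.6% of the summed fringe level in GFP-positive libraries, against 81.4%, 71.5% and 79.5% in GFP-negative libraries. Rfng made up 79.4%, 83.6% and 77.4% in GFP-positive libraries and 18.3%, 27.9% and 20.1% in GFP-negative libraries. The share of Mfng was 7.62% ± 1.29 in the GFP-positive fraction, against 0.461% ± 0.164 in GFP-negative cells (SD, n = 3 each). The 3 shares cannot vary independently, and each gave p = 0.10 in an exact two-sided permutation test, the smallest that 3 against 3 allow. The summed level was 26.2 ± 2.03 CPM per kb in GFP-positive cells and 77.2 ± 17.4 CPM per kb in GFP-negative cells (SD, n = 3 each).

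**Figure D4:**
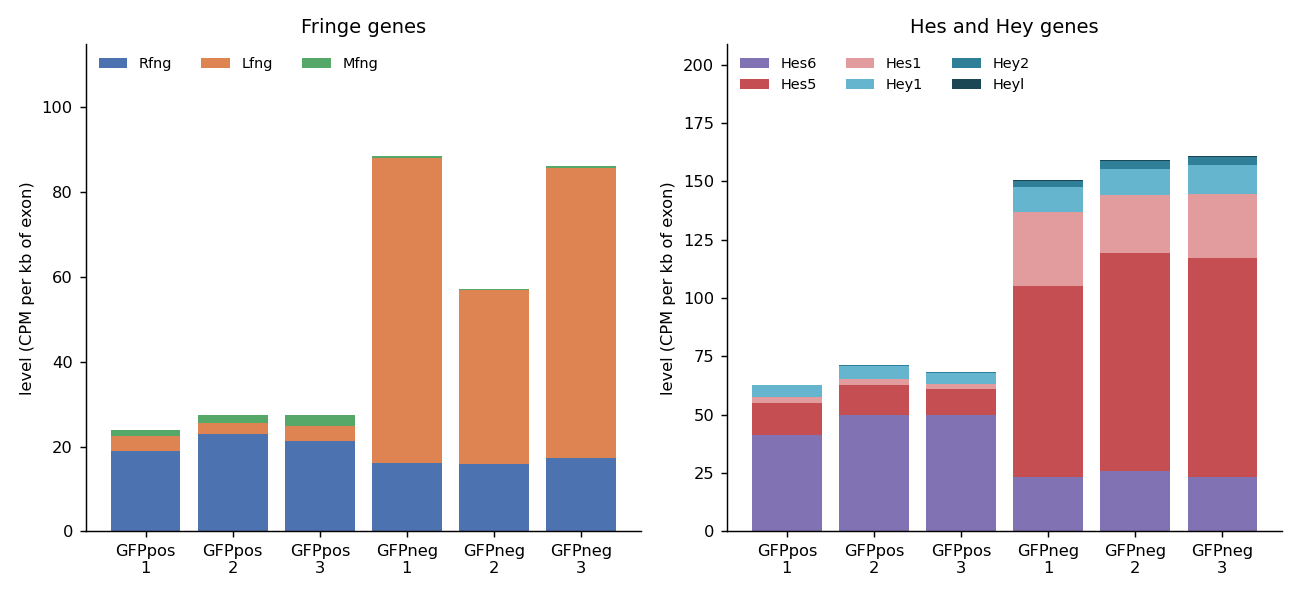
Levels per kb of exon in each library, stacked by gene, for the fringes (left) and the Hes and Hey genes (right). Rfng and Hes6 make up most of the GFP-positive bars, and Lfng and Hes5 most of the GFP-negative bars.

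The order of the 10 genes by level per kb of exon also differed. Levels and shares of different genes are approximate here, since the exons used for counting are not known. In GFP-positive cells Hes6 came first, at 47.1 ± 4.92 CPM per kb, followed by Rfng at 21.0 ± 2.01, Hes5 at 12.4 ± 1.31 and Hey1 at 5.18 ± 0.320 (SD, n = 3 each). Lfng and Nrarp followed at 3.18 and 2.83 CPM per kb, then Hes1 with a range of 2.02 to 2.77 and Mfng at 2.01, and each neighbour from Lfng to Mfng overlapped the next. Hey2 and Heyl came last, at 0.405 and 0.0361 CPM per kb. In GFP-negative cells Hes5 came first, at 89.6 ± 6.85 CPM per kb, then Lfng at 60.4 ± 17.0 and Hes1 at 28.1 ± 3.65 (SD, n = 3 each). Hes6 at 24.3 overlapped with Hes1 above it and with Nrarp, at 21.6 CPM per kb, below it. Rfng, Hey1 and Hey2 stood at 16.5, 11.6 and 2.97 CPM per kb, and Heyl and Mfng, at 0.366 and 0.337, overlapped.

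Within the Hes and Hey genes, Hes6 accounted for 69.6% ± 3.69 of the summed level per kb in GFP-positive cells and 15.5% ± 0.950 in GFP-negative cells (SD, n = 3 each). Hes5 accounted for 18.4% ± 2.75 in GFP-positive cells and 57.1% ± 2.43 in GFP-negative cells, and Hes1 for 2.95% to 4.31% in GFP-positive libraries and 15.6% to 21.2% in GFP-negative libraries. The share of Hey1 was 7.67% ± 0.383 in the GFP-positive fraction, against 7.37% ± 0.371 in GFP-negative cells. The 5 genes other than Hes6 summed to 20.5 ± 1.88 CPM per kb in GFP-positive cells, against 133 ± 5.16 CPM per kb in GFP-negative cells (SD, n = 3 each).

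Markers of several cell types differed along with these genes. As background to the marker counts, 26.1% of all tested genes were called higher and 29.2% lower. All 8 astrocyte markers were lower in GFP-positive cells, with a summed level of 358 to 475 CPM in the GFP-positive fraction, against 2733 to 3389 CPM in GFP-negative libraries. Of 6 neural stem cell markers, 5 were lower and 0 higher, summing to 1712 to 1927 CPM in the GFP-positive fraction, against 5353 to 6090 CPM in GFP-negative libraries. Of 10 precursor markers, 9 were higher, Pdgfra included, summing to 7453 to 8071 CPM in the GFP-positive fraction, against 5513 to 5777 CPM in GFP-negative libraries. Of 7 ependymal markers, 6 were tested, 2 were lower (Foxj1 and Rfx2) and 1 higher (Tekt1). The ependymal sums were 144 to 160 CPM in the GFP-positive fraction, against 170 to 175 CPM in GFP-negative libraries. Rfx3, which was not called, made up most of these sums. Foxj1 averaged 4.92 and 13.3 CPM, Rfx2 1.11 and 6.92 CPM, and Tekt1 0.904 and 0.396 CPM in GFP-positive and GFP-negative cells. Of 6 neuronal markers, only 3 were tested, and these (Snap25, Rbfox3 and Syt1) were higher. The 6 summed to 32.4 to 39.8 CPM in the GFP-positive fraction, against 7.31 to 13.4 CPM in GFP-negative libraries. Stmn2 and Slc32a1 did not exceed 0.255 CPM in any library, and Slc17a6 had no count in any library. Of 7 mature oligodendrocyte markers, 3 were tested and 2 were higher (Mbp and Cnp). The 7 summed to 205 to 226 CPM in the GFP-positive fraction, against 126 to 177 CPM in GFP-negative libraries. Cnp made up most of these sums, while Mbp averaged 7.56 and 1.34 CPM in GFP-positive and GFP-negative cells. The untested ones did not exceed 0.265 CPM in any library. Microglial markers summed to 0.490 to 1.14 CPM in the GFP-positive fraction, against 0.576 to 2.65 CPM in GFP-negative libraries, with C1qa at 0 throughout. The part of any of these in the Notch target values was not tested.

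The ligands and receptors of the pathway act upstream of these genes. The counts of called genes below stand against 26.1% of all tested genes called higher and 29.2% called lower. Of 8 ligands and ligand-like genes, 5 were higher (Dll1, Dll3, Dner, Jag2 and Dlk2), 1 was lower (Jag1) and 2 were not called. The 3 with the smallest p were Dll1, at a log2 fold change of 1.56, Dll3, a family member that acts inside the cell, at 2.92, and Dner at 0.62. Jag1 had -0.59 and lost its call without replicate 3 (edgeR adjusted p = 0.0538). Of 4 receptors, Notch3 and Notch2 were lower (-4.33 and -1.51), and Notch1, at 1345 and 1083 CPM in GFP-positive and GFP-negative cells, was higher by 0.31; without replicate 3 its fold change was still 0.31, but the call was lost (edgeR adjusted p = 0.0970).

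Other enzymes glycosylate the same receptor repeats. Of 9 such genes, 6 were lower (66.7%, against 29.2% of all tested genes), 1 was higher (Poglut1, 0.19) and 2 were not called. The smallest p belonged to Poglut3, Poglut2 and Gxylt2, at -1.25, -0.55 and -3.08; Gxylt2 averaged 0.0991 CPM in the GFP-positive fraction, against 0.925 CPM in GFP-negative cells. It had 1, 11 and 1 counts in GFP-positive libraries, against 28, 34 and 26 counts in GFP-negative libraries, and its fold change was -4.90 without GFP-positive replicate 2. Pofut1, the enzyme that adds the O-fucose, was among the 6 at -0.18 and lost its call in 11 of 16 alternatives, the replicate block (edgeR adjusted p = 0.0544) and DESeq2 (adjusted p = 0.0632) included. Without replicate 1, 3 were lower and 0 higher, and Poglut2 was among those lost (edgeR adjusted p = 0.0514); Poglut1 lost its call in 3 of 16 alternatives. Of 10 genes of Notch cleavage, the protease Adam17 and the gamma-secretase subunits Ncstn and Aph1a were lower (-0.69, -0.30 and -0.35), 1 gene was higher, and 6 were not called. The 30.0% that were lower lie near the 29.2% of all tested genes. Ncstn lost its call without replicate 1 and without replicate 3 (edgeR adjusted p of up to 0.0670).

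Among genes of the nuclear Notch complex most calls were of small increases. Of 13 listed, 11 were higher, against 26.1% of all tested genes, and 2 were lower (Maml3 and Kat2b). Spen, a corepressor bound by Rbpj, had a log2 fold change of 0.59, the acetyltransferase Ep300 0.41 and Rbpj itself 0.31. Rbpj stood at 115 ± 1.83 CPM in the GFP-positive fraction, against 92.9 ± 2.01 CPM in GFP-negative cells (SD, n = 3 each). Without replicate 3, 7 were higher and 0 lower, and Maml3 lost its call in 5 of 16 alternatives. Of 6 Groucho corepressors, which Hes and Hey proteins recruit, Tle4 and Tle3 were higher (1.07 and 0.60), and Tle6, Tle5 and Tle1 were lower (-1.33, -0.57 and -0.35), with Tle1 losing its call in 8 of 16 alternatives. Among 13 genes of receptor endocytosis and ubiquitination, Numbl and Fbxw7 were higher (0.45 and 0.33), Dtx4 and Neurl1b were lower (-1.04 and -1.10), and 9 were not called; without GFP-negative replicate 2, 5 were higher.

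**Figure D5:**
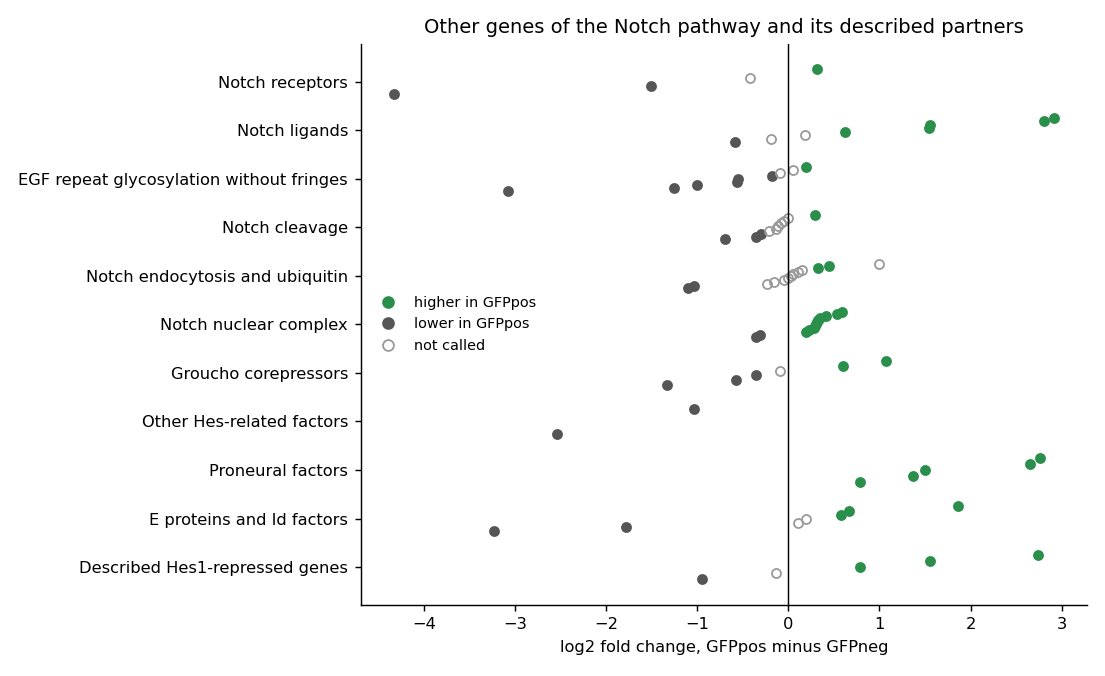
Log2 fold change, GFP-positive minus GFP-negative, of the tested genes of each list around the 10 genes. Each point is a gene, filled where it passed edgeR's adjusted p of 0.05. Proneural factors all lie right of 0, and points of the nuclear complex crowd at small positive values.

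Genes that Hes1 is described to repress did not all move one way. Of 6 listed, 3 were higher, Dll1 and Cdkn1c among them; 1 was lower (Cdkn1a, -0.95), 1 was not called and Neurog2 had too few counts to test. Cdkn1c, an inhibitor of cyclin-dependent kinases, was higher by 2.74. Among 11 proneural and related factors, 5 were tested and all 5 were higher, with Atoh8 and Insm1 at 2.76 and 2.65 and Neurod1 and Neurod4 at 1.42 and 1.09 CPM in GFP-positive cells. The other 6 stood at 0.680 CPM or less in every library. Neurod4 lost its call in 7 of 15 alternatives, and its log2 fold change of 1.5 was 2.27 without replicate 3; Neurod1 lost its call without replicate 3 (edgeR adjusted p = 0.0618).

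Other factors of the helix-loop-helix class differed in both directions. Bhlhe40 and Bhlhe41, repressors related to Hes, were both lower, at -2.54 and -1.03, while Hes2, Hes3, Hes7 and Helt did not exceed 0.454 CPM in any library. Id1 and Id3, which block proneural partners, were lower at -1.78 and -3.23, and Id2 was higher by 1.86. Of the E proteins, the partners of proneural factors, Tcf4 and Tcf12 were higher by 0.67 and 0.58. Over all 90 listed pathway genes, 80 were tested, 32 were higher and 24 were lower, with a median log2 fold change of 0.036.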

How the data were processed

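The authors deposited raw read counts per gene, 1 column per library, with no normalization. Per the labels' protocols, SMART-Seq Stranded libraries were sequenced; the submitters' processing notes name TopHat2 2.1.1, featureCounts 2.0.0 and the mm39 build, and annotation and strand setting: not given in the sources used here.

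From the counts, edgeR 4.0.16 (R 4.3.3) with TMM scaling, filterByExpr and a quasi-likelihood test was fitted to all 6 libraries, with Benjamini-Hochberg adjustment over the 14554 genes tested and a threshold of 0.05. The procedure was tested on simulated data in which far fewer genes changed than were called here. That simulation does not check the scaling or the error rate with so many changed genes. Standard errors were the absolute log2 fold change over the root of F. Levels per kb divide CPM by the union of exons in GENCODE M21 (GRCm38). The exons counted by the submitters on mm39 may differ, so ranks and shares between genes carry an unknown length error. Log2 ratios used a prior count of 2. Motifs were searched in RefSeq promoters. Precision from depth covers counting error only, since PCR copies are counted.

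Groups follow the titles. Nothing says that libraries came from separate animals or cultures, so p-values cover the spread among these libraries, which may be technical. Titles give each number to a GFP-positive and a GFP-negative library. After subtraction of group means, libraries sharing a number correlated at 0.218, 0.355 and 0.159. Those with different numbers correlated at -0.306 to 0.128, a contrast that the subtraction itself enlarges. Whether the numbers mark true pairs is therefore not settled. They define the same-numbered pairs and the replicate block, while the main fit and the permutation tests did not use them. The alternatives were other scalings and filters, DESeq2 1.42.0, the replicate block, and leaving out libraries or numbers.

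The 10 genes, the lists and the markers were chosen with earlier results of these data known. The genes named beside the 10 are the 3 with the smallest p in each pathway list, called genes where a count is 5 or fewer, and Pdgfra; Rbpj, Pofut1 and the individual marker genes were named after their values were seen. Some genes that this rule names are not reported here.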

Additional observations from a re-analysis of the deposited data

How the results depend on the processing

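The 10 genes kept their direction and their call in all 160 combinations of gene and alternative, 16 for each gene. In every one of these alternatives 3 were higher and 7 were lower in GFP-positive cells. The widest range was that of Heyl, from -3.93 to -2.77 on the log2 scale, and the largest adjusted p was 0.0483, for Rfng without replicate 3 (edgeR). With the replicate block, edgeR called 3918 genes as higher and 4422 as lower over the whole table, 33 and 23 of the pathway genes, and 3 and 7 of the 10 genes; the block changed no call among the 10. With each library or each number left out in turn, 2450 to 4169 genes were higher and 2951 to 4468 lower over the whole table, and 25 to 35 pathway genes were higher and 17 to 24 lower. The ratio and share differences taken within replicate numbers are equal to the unpaired ones by construction, at 0.63 for Hes5 to Hes1, 4.43 for Hes6 to Hes1 and -65.2 percentage points for the share of Lfng, with an exact sign-flip p of 0.25, the smallest that 3 pairs allow. Depth limits Heyl most, with 3 to 14 counts in each GFP-positive library.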

Other observations

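The genes whose pattern over the 6 libraries was nearest to that of 4 of the described genes were listed among the 10138 genes whose average log2 CPM, as edgeR computes it from the average level, reached 3, by Euclidean distance of centred log2 CPM. Mxra8, Palmd and Cdc42ep1 were nearest to Hes1, at distances of 0.36, 0.36 and 0.41, with log2 fold changes of -3.53, -3.53 and -3.60. For Hes5 they were Plekha7, Arhgap18 and S100a11, at 0.28, 0.32 and 0.33. Hes6 had the closest neighbours, Pdzd4, Cerox1 and Sox8, at 0.13, 0.14 and 0.15, with log2 fold changes of 0.97, 1.05 and 1.07. Prss35, Npnt and Col5a2 were nearest to Lfng, at 0.40, 0.49 and 0.55. These distances are dominated by the difference between the fractions, which all 6 libraries share, and describe likeness of the change only, since centring removes the level.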
